A study of Mus musculus with 2 samples.

Results

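The resident macrophages of the control mouse kidney are described here cell by cell, with the spread of MHC class II, Mmp12, Mmp13 and Cx3cr1 among them. They are 673 cells of the 6295 cells kept in the control library, or 10.7% (exact Clopper-Pearson 95% interval 9.94 to 11.5), and of 22217 kept cells in the series. Members were chosen from measured counts of unique molecular identifiers (UMIs, one per captured transcript): a barcode had at least 500 UMIs, at least 200 genes and at most 50% mitochondrially encoded UMIs. It also had C1qa, C1qb and C1qc summing to at least 10 UMIs, the proliferation genes Mki67 and Top2a below 2, the T cell genes Cd3d, Cd3e and Cd3g below 2, the B cell gene Cd79a at 0 and the proximal tubule gene Lrp2 at most 1.

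The series compared kidney with folic acid (FA)-induced nephropathy, an injury made by a vitamin that harms tubules at high dose, with control kidney, in a study of the pore-forming proteins GSDMD and GSDME. Both samples were labelled wild type, and each was 1 library of droplet-captured cells. The labels give no FA dose, time after FA, strain, age or number of animals. Barcodes starting with FA3 were taken as FA and those starting with C3 as control, since the first names FA and no key is stated. With 1 library a group there is no test, p-value or replicate spread: all intervals are exact 95% intervals that cover counting error only. Levels are given as CPM, the UMIs of a gene scaled to the same total in each group. Xist was at 942 CPM in FA macrophages and at 0 UMIs in control macrophages, and the Y-linked Ddx3y was at 0 UMIs in FA macrophages and 61.9 CPM in control macrophages, so treatment and sex of the animals cannot be told apart.

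Kidney macrophages are phagocytes that lie between tubules and along capillaries, where they take up debris, sample filtered and peritubular material and present antigen. MHC class II molecules hold peptides at the cell surface for helper T cells: H2-Aa with H2-Ab1 and H2-Eb1 encode their chains, Cd74 the invariant chain that guards the empty groove, H2-DMa and H2-DMb1 the peptide exchanger, and Ciita the transactivator that turns these genes on together. Mmp12 encodes macrophage elastase and Mmp13 a collagenase, both secreted proteases of the extracellular matrix, and Cx3cr1 the receptor for the chemokine fractalkine, long used to mark kidney mononuclear phagocytes.

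The promoters of the genes whose spread is described are shown first, as RefSeq gives the 250 bases before each transcript start in GRCm38.p6. H2-Aa and H2-Eb1 are shown because their transcripts varied together across cells. Capitals mark the letters of the Y box, CTGATTGG or CCAATCAG on the other strand, the element of class II promoters bound by the factor NF-Y. H2-Aa lies on the minus strand at chr17:34287824-34288073, with the Y box beginning 51 bases before the start, and H2-Eb1 on the plus strand at chr17:34305617-34305866, with the Y box beginning 62 bases before it.
H2-Aa: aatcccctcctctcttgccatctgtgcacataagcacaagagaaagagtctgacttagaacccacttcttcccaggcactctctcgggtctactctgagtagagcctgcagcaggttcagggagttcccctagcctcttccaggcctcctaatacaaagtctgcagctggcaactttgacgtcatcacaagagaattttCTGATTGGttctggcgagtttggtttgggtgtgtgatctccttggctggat
H2-Eb1: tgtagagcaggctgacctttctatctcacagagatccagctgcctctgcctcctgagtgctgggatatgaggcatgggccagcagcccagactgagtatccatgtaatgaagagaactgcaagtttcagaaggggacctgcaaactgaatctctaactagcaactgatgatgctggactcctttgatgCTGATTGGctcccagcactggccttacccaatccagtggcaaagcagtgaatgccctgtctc
These letters, on either strand, were present in 1258 of 32851 promoters of the same length in the table, or 3.83%. H2-Ab1 is named only.

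Mmp12 and Mmp13 are shown because they are neighbours on chromosome 9, with Mmp13 and the upstream Mmp12 start 71883 bases apart, and were the highest by UMIs of the matrix metalloproteinase genes analysed in these cells. Capitals mark the AP-1 letters TGAGTCA or, on the other strand, TGACTCA. Mmp13 lies on the plus strand at chr9:7272264-7272513. For Mmp12 the table gave 2 starts on the plus strand, and the window of the downstream one, at chr9:7347124-7347373, is printed because the upstream window, at chr9:7344147-7344396, held neither element.
Mmp13: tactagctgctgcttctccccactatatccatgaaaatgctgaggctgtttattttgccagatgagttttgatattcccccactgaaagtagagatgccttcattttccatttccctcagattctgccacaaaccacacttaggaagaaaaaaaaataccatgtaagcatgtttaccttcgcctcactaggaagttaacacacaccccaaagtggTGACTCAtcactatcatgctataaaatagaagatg
Mmp12: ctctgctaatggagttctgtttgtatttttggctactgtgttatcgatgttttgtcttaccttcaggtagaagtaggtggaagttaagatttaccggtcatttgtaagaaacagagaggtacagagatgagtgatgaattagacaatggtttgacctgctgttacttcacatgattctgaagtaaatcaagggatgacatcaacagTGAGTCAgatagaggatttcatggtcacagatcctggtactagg
The AP-1 letters began 35 bases before the Mmp13 start and 44 bases before the downstream Mmp12 start, and either orientation was found in 1466 of the 32851 promoters, or 4.46%. For Mmp12 that share is no yardstick, since the window was chosen among 2 for holding the letters. The Cx3cr1 window held neither element. A match of letters is a description and not a binding site.

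The members had a median of 5405 UMIs per cell, with a lowest of 583 and a highest of 32430, and a median of 1847 genes. Their median mitochondrial share was 0.595%. Their C1q sum, which chose them, had a median of 85 UMIs and a highest of 559. In control, 13 members lay just inside the threshold at 10 to 14 C1q UMIs, 20 barcodes that met the other conditions lay just outside at 5 to 9, and 126 held 1 to 4. Of 54 barcode sequences shared by both libraries, 6 were in FA macrophages and 1 in control macrophages.

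The leading transcripts were those of antigen presentation. Cd74 was the highest gene at 47193 CPM, followed by the nuclear RNA Malat1 at 27597, H2-Eb1 at 17564, the actin-binding Tmsb4x at 17366, H2-Aa at 16837 and H2-Ab1 at 14996 CPM. Fth1 of the iron store ferritin (9186 CPM), Actb (7352), the protease inhibitor Cst3 (7159) and C1qa (6495) completed the 10 highest genes that are not mitochondrial or ribosomal. C1qb stood at 6120 and C1qc at 3564 CPM.

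General macrophage markers outside the rule were present in most members. Csf1r, the receptor for colony-stimulating factor 1, had 631 CPM and UMIs in 88.7% of cells, the F4/80 gene Adgre1 275 CPM in 70.6%, the calcium-binding Aif1 652 CPM in 90.9% and the lysosomal Cd68 516 CPM in 86.5%. Cd81, a surface tetraspanin used as a marker of resident kidney macrophages, had 1262 CPM in 96.9%, although it was also in 81.1% of endothelial cells once depths were made equal. Markers of some other tissue macrophages were nearly absent: Folr2 was at 0.230 CPM (1 UMI) and the haemoglobin scavenger receptor Cd163 at 0.691 CPM (3 UMIs), while the mannose receptor Mrc1 was at 148 CPM in 45.3% of cells. The engulfment receptor Mertk was low, at 8.98 CPM in 4.75% of cells, and at equal depth it was in 1.05% of macrophages and 6.26% of endothelial cells. Timd4, Lyve1, Vsig4, Marco and Clec4f were not analysed here. Class II genes thus led these cells with general macrophage markers at lower levels, and whether a cell was resident or had lately come from blood was not measured.

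Markers of other cells were present at uneven levels. The rule itself limited Cd3d, Cd3e and Cd3g of the T and NK list. It also limited Cd79a of the B and plasma cell list and Lrp2 of the proximal tubule list. The sums of these lists are thus partly set by the rule. The T and NK list summed to 23.5 CPM, the neutrophil list to 23.7 CPM with S100a8 and Mmp9 at 0, and the stroma and podocyte list to 17.0 CPM. The proximal tubule list summed to 1093 CPM, the distal nephron list to 204 CPM, the endothelial list to 166 CPM and the B and plasma cell list to 559 CPM, most of it Ighm at 364 CPM. A restricted set was therefore used beside all members: 526 of the 673, after leaving out 65 cells with 5 or more UMIs over 52 marker genes of tubule, endothelium, stroma, podocytes, T and NK cells, neutrophils, mast cells and red cells and 111 cells with more than 5% mitochondrial UMIs, some of them both. Values of that set are named as such. To compare shares of cells with a UMI between cells of different depth, each cell was also thinned to 1000 UMIs, which left out 6 members and kept 667. Comparison cells of the same library were 560 T, 249 B, 1689 proximal tubule and 973 endothelial cells, with medians of 3449.5, 2861, 8838 and 3261 UMIs, 100 monocytes (at least 5 UMIs of Ly6c2, Plac8 and Chil3) and 70 type 2 dendritic cells (at least 2 UMIs of Cd209a), with medians of 7423 and 8440 UMIs.

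Class II RNA was found in every member. The 12 genes of the class II list summed to 98939 CPM, against 72293 CPM in 70 type 2 dendritic cells, 12048 CPM in 249 B cells, 8944 CPM in 100 monocytes, 855 CPM in endothelium, 400 CPM in T cells and 396 CPM in proximal tubule of the same library. The B cell group held 342931 CPM of the B and plasma cell list, and its depth had a median of 2861 and a 95th percentile of 29439 UMIs. The part of plasma cells in its class II level was not tested. Per member cell, the class II list took 10.7% of UMIs at the median, with quartiles at 8.60% and 12.4%. The lowest was 0.910% and the highest 21.5%. The 5th and 95th percentiles were 4.98% and 14.9%, and the plot of class II share shows 1 broad peak with a thin lower tail.

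H2-Aa, H2-Ab1 and H2-Eb1 each had UMIs in 99.9% of members and Cd74 in all 673. After thinning, H2-Aa was in 99.7% of macrophages and in 3.05% of T cells, which should lack it. The peptide exchanger genes H2-DMa and H2-DMb1 were far lower, at 835 and 858 CPM, in 94.4% and 93.9% of members. Ciita was at 248 CPM in 66.0% of members, and in 23.8% after thinning (20.7 to 27.3), against 25.7% of type 2 dendritic cells, 23.0% of B cells and 0.179% of T cells. The thiol reductase Ifi30, which opens disulfide bonds of antigens, was at 304 CPM in 70.6%. The modulators H2-Oa and H2-Ob, better known from B cells, were at 52.5 and 32.2 CPM, H2-DMb2 was at 17.0 CPM and H2-Eb2 at 1.38 CPM (6 UMIs).

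**Figure D1:**
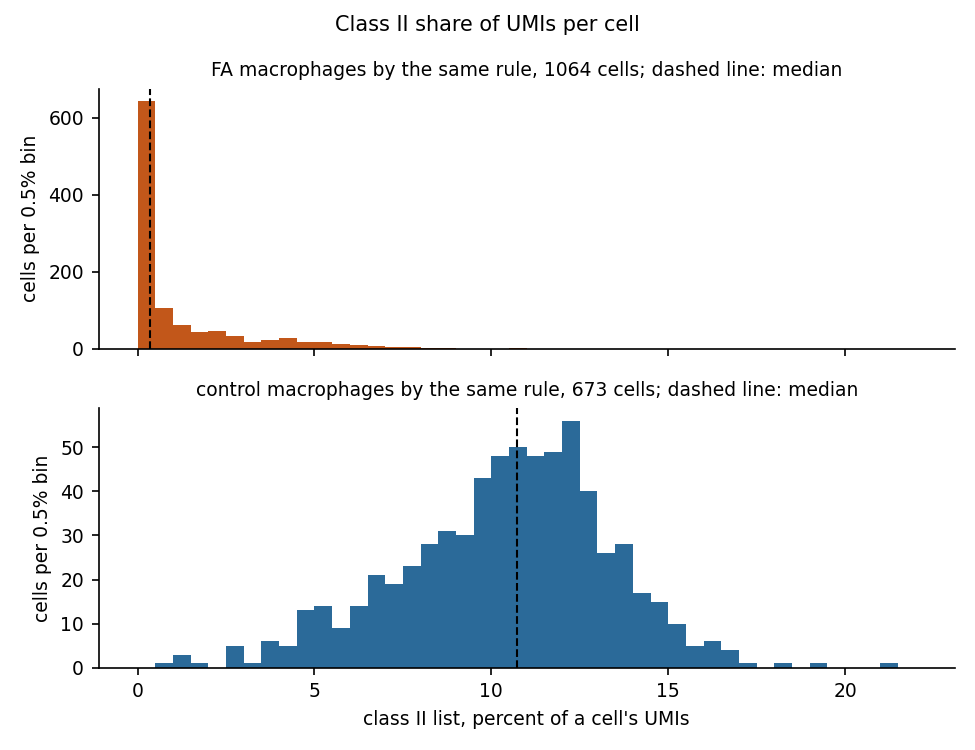
Class II list as a percent of each cell's UMIs (x axis) against the number of cells per bin (y axis), for 1064 FA macrophages (top) and 673 control macrophages (bottom); dashed lines are medians, 0.339% in FA and 10.7% in control. The FA cells pile up near 0 with a tail to 10.9%, and the control cells form 1 broad peak.

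Mmp12 was unevenly spread. It had 2630 UMIs over the members, or 605 CPM, in 428 cells (63.6%); the quartiles were 0, 1 and 5 UMIs per cell, the 95th percentile was 16 and the highest cell held 69. The 10% of cells with most Mmp12 held 50.2% of its UMIs. After thinning it was in 33.6% of macrophages (30.0 to 37.3), in 2.86% of type 2 dendritic cells, 0.358% of T cells and 0.104% of endothelial cells, and in no monocyte, B or proximal tubule cell. The share in macrophages was thus above that in each of these 6 comparison groups; the other cells of the library were not compared.

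Mmp13 was lower and also uneven, with 1212 UMIs, or 279 CPM, in 331 cells (49.2%), a median of 0 UMIs, an upper quartile of 2 and a highest of 36. The 10% of cells with most Mmp13 held 51.7% of its UMIs. After thinning it was in 19.3% of macrophages (16.4 to 22.5) and in at most 0.403% of each of the 6 comparison groups of the control library.

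The rest of the protease family was low or at 0. The membrane-type protease Mmp14 was at 16.6 CPM, Mmp25 at 9.44 CPM and the collagenase Mmp8 at 2.07 CPM. Mmp2, Mmp11, Mmp15, Mmp17, Mmp19, Mmp23 and Mmp28 had between 1 and 3 UMIs each, Mmp3, Mmp7, Mmp9, Mmp16 and Mmp27 had none, and Mmp10 was not analysed here. Of the tissue inhibitors, Timp2 was at 294 CPM in 71.2% of members and Timp3 at 69.8 CPM, while Timp1 had 1 UMI and Timp4 none. Timp3 was in 82.5% of endothelial and 74.9% of proximal tubule cells after thinning, and in 8.42% of T cells, beside 6.15% of macrophages, so it was not read as expressed by them.

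Cx3cr1 was more evenly spread than Mmp12 and Mmp13. It had 2700 UMIs, or 622 CPM, in 570 cells (84.7%), with quartiles of 1, 3 and 5 UMIs, a highest of 31, and 34.7% of its UMIs in the top 10% of cells. After thinning it was in 42.4% of macrophages (38.6 to 46.3), 13% of monocytes, 8.57% of type 2 dendritic cells, 3.58% of T cells and 0.178% of proximal tubule cells. Ccr2, the receptor that brings monocytes out of marrow and blood, was at 541 CPM in 68.6% of members, and after thinning in 34.0% (30.4 to 37.8) of macrophages, 43.0% of monocytes, 37.1% of type 2 dendritic cells and 11.8% of T cells. Ly6c2, a marker of classical monocytes, was in only 21 of the 673 members, or 3.12%. The 100 monocytes held 3197 CPM of endothelial markers, and the part of that RNA in their values was not tested.

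**Figure D2:**
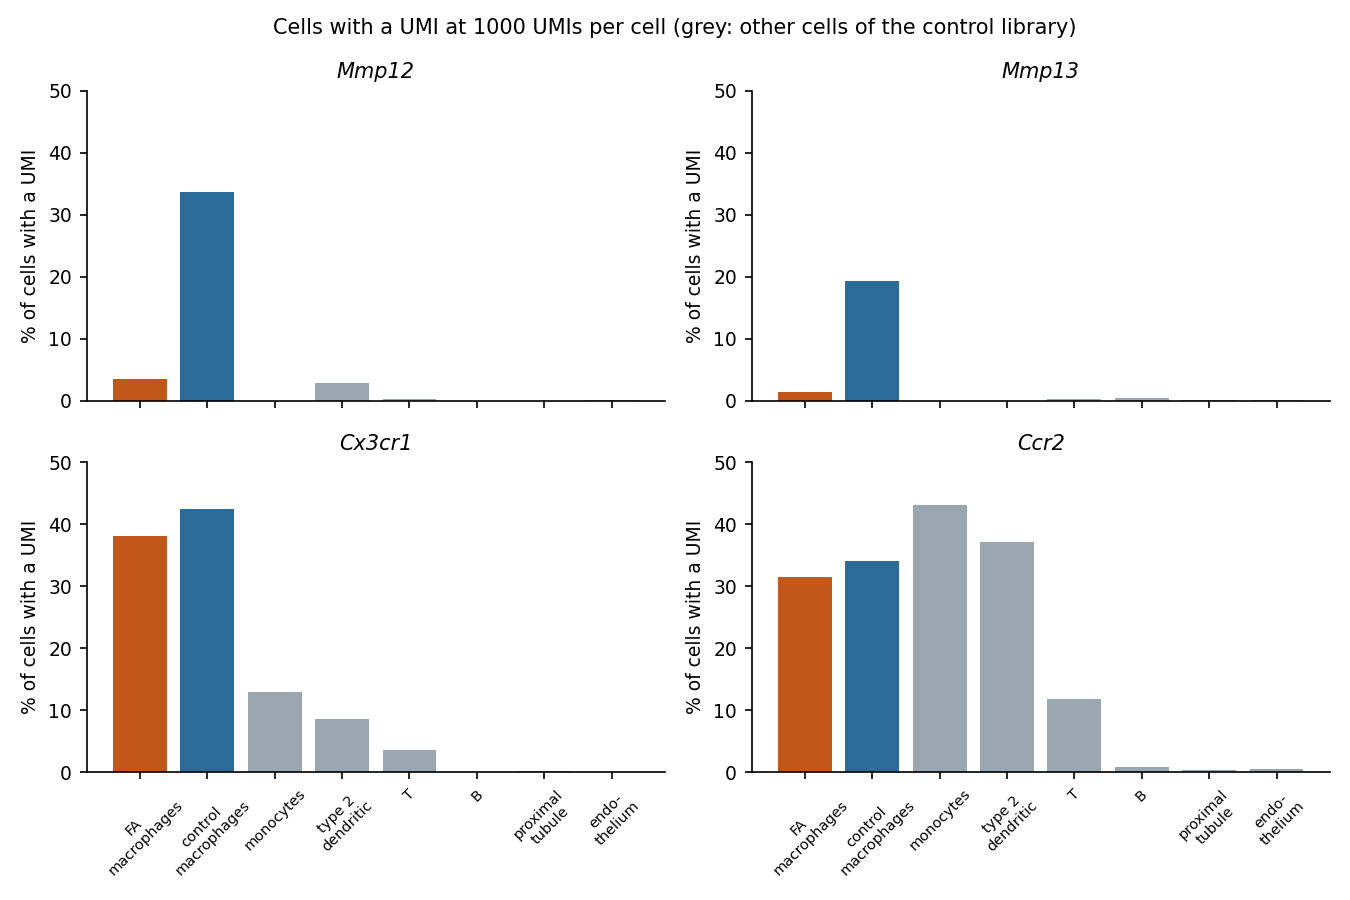
Percent of cells with at least 1 UMI (y axis, each cell thinned to 1000 UMIs) of Mmp12, Mmp13, Cx3cr1 and Ccr2, by group (x axis): FA macrophages in orange, control macrophages in blue, other control cells in grey. Mmp12 and Mmp13 bars stand high only for control macrophages among the groups drawn (33.6% and 19.3%), while Ccr2 is also high in monocytes (43.0%) and type 2 dendritic cells (37.1%).

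How far each gene varied beyond counting was described by the Fano factor, the variance over the mean of thinned counts, which is near 1 for pure counting. Over 1113 genes with a mean of at least 0.1 the median was 1.05. Mmp12 had 2.17 (rank 35), H2-Aa 2.09 (rank 38), Ccr2 1.68 (rank 59), Mmp13 1.52 (rank 73), Cx3cr1 1.29 (rank 120) and Ciita 1.03 (rank 676). The factor rises with the mean for a like relative spread. Mean thinned counts were 17.5 for H2-Aa, 0.600 for Mmp12, 0.615 for Cx3cr1, 0.568 for Ccr2, 0.277 for Ciita and 0.270 for Mmp13. The ranks thus do not compare relative spread between genes of unlike mean. The highest factors were of Gpx3 (11.6), Apoe (11.1), Cxcl9 (9.45), Malat1 (9.11), Ccl4 (5.96), Cd74 (5.91), Fxyd2 (5.37), Lyz2 (5.14), Fos (4.64) and Ccl12 (4.30). Gpx3 and Fxyd2 are tubule genes: Gpx3 was in 26.4% of thinned macrophages, 99.6% of proximal tubule cells, 30.8% of T cells and 26.0% of endothelial cells, so its share in macrophages was no higher than in T cells, and the source of this RNA was not tested. Apoe (a lipid carrier), Lyz2 (lysozyme) and the interferon-induced chemokine Cxcl9 are genes macrophages are known to make. Cxcl9 was at 249 CPM with UMIs in only 40 members, or 5.94%.

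Class II genes varied together, and Mmp12, Mmp13 and Cx3cr1 had rho near 0 with them. In the 523 thinned cells of the restricted set, Spearman's rho, given as a description across cells of 1 library, was 0.50 for Cd74 with H2-Eb1, 0.41 for Cd74 with H2-Aa, 0.36 for H2-Aa with H2-Eb1 and 0.33 for H2-Aa with H2-Ab1. The class II list had a rho of 0.34 with the C1q sum, a value the rule itself used. The list had a rho of 0.07 with Ciita, 0.06 with Mmp12, -0.01 with Mmp13 and -0.03 with Cx3cr1. It had a rho of -0.22 with the mitochondrial share and -0.15 with total UMIs. The class II list took 10.7% of a member's UMIs at the median, and C1qa, C1qb and C1qc took 0.671%, 0.652% and 0.366%. The part of cell composition in these rho values was not tested.

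**Figure D3:**
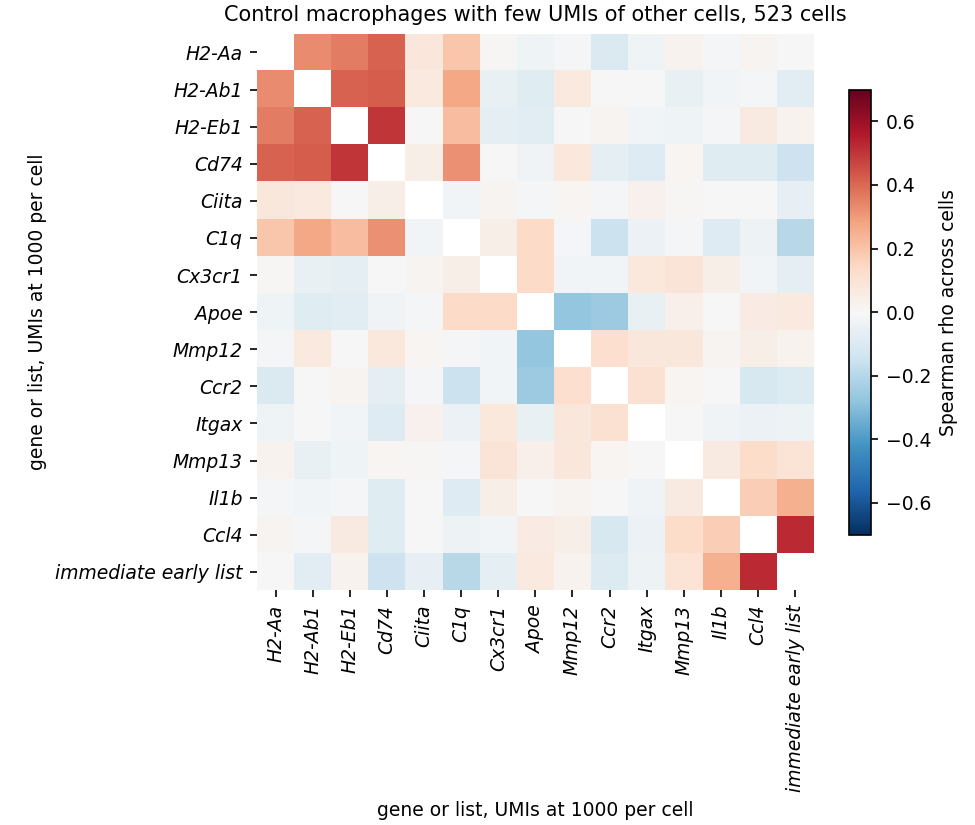
Spearman rho (colour, red positive and blue negative) between genes or lists (both axes) across 523 thinned control macrophages with few UMIs of other cells. The class II genes form a red block of 0.33 to 0.50, Mmp12 with Apoe is -0.27 and Ccr2 with Apoe is -0.25.

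The cells richest and poorest in class II were compared by gene as a description, since they come from the same cells. Thinned members were cut into 3 groups of like size by class II share, called class II-high, middle and class II-low. Among all members, the class II-high cells (224, from 11.9%) had a median mitochondrial share of 0.427% and 4424.5 UMIs, and the class II-low cells (225, up to 9.50%) had 1.76% and 6764 UMIs. In the restricted set 211 class II-high and 114 class II-low cells remained, with mitochondrial medians of 0.396% and 0.656%. There, the C1q genes, which chose the cells, summed to 20035 CPM in class II-high and 14194 CPM in class II-low cells. Mmp12 was at 659 and 474 CPM, a ratio of 1.39 (1.22 to 1.58), Mmp13 at 262 and 304 CPM (0.863, 0.724 to 1.03), Cx3cr1 at 633 and 668 CPM (0.947, 0.844 to 1.06) and Ccr2 at 507 and 656 CPM (0.773, 0.684 to 0.873). Of 4286 genes compared, 2.5% were at least 1.5-fold higher and 11.3% at least 1.5-fold lower in class II-high cells. Median depth there was 4519 UMIs in class II-high and 5525 in class II-low cells, and its part in these counts was not tested.

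Some genes were much lower in class II-high than in class II-low cells of the restricted set. Of 3 monocyte markers compared there, 2, Plac8 and S100a4, were at least 1.5-fold lower and none was higher. Plac8 was at 2.68 and 221 CPM, and the calcium-binding S100a4 at 28.6 and 141 CPM. Ly6c2, at 4.47 and 15.7 CPM, was not among the 3. Few cells carried the Plac8 and Ly6c2 values. Plac8 was in 1.42% of class II-high and 7.02% of class II-low cells and Ly6c2 in 2.37% and 5.26%. Of all 673 members, 13 held 95.8% of the Plac8 UMIs. Among the other genes with low ratios, Ahnak, a large scaffold protein of the membrane, was at 25.9 and 254 CPM and S100a10 at 14.3 and 102 CPM. The actin-capping Capg was at 12.5 and 55.0 CPM and the immediate early receptor Nr4a1 at 28.6 and 134 CPM. Lyz2 was at 2003 CPM in class II-high and 4533 CPM in class II-low cells, a ratio of 0.442 (0.419 to 0.466). Of 20 immediate early and dissociation stress genes 5 were at least 1.5-fold lower and none was higher, with a median log2 ratio of -0.48 against -0.14 for all genes; Fos was at 2937 and 4088 CPM. Higher in class II-high cells was Il18, a cytokine processed by caspase-1, at 37.6 and 17.0 CPM. H2-Oa was also higher, at 84.1 and 28.8 CPM, but it belongs to the class II list that made the split.

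Mmp12 and Mmp13 were not strictly found in the same cells. With all UMIs, Mmp13 was in 56.8% (51.9 to 61.5) of 428 cells with Mmp12 and in 35.9% (29.9 to 42.3) of 245 cells without it, a comparison that deeper cells can set. After thinning, Mmp13 was in 23.2% (17.9 to 29.3) of 224 cells with Mmp12 and in 17.4% (13.97 to 21.2) of 443 cells without it, and the intervals overlap. Cx3cr1 was in 43.3% and 42.0% of the same cells. Ccr2 was in 42.4% (35.9 to 49.2) of cells with Mmp12 and in 29.8% (25.6 to 34.3) of cells without it. The Ccr2 intervals do not overlap; the difference between Ccr2 and Cx3cr1 in this respect was not tested.

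Splits of the restricted set by Mmp12, Mmp13 or Cx3cr1 showed few other genes apart. With against without a thinned Mmp12 UMI, 2.99% of 5990 genes were at least 1.5-fold higher and 4.64% lower. Apoe was at 2896 CPM with Mmp12 and 6133 CPM without (0.472, 0.454 to 0.491), and Lyz2 at 1784 and 3272 CPM (0.545, 0.518 to 0.573). No class II gene of 11 was among the genes called, while 6 of 14 chemokine ligands were lower and 1 was higher. Ccl12, a ligand of CCR2, was at 45.8 CPM with Mmp12 and 191 CPM without, and Ccl2, another, at 21.0 and 83.8 CPM. Cxcl9 was at 13.7 and 414 CPM, with 21.1% of its UMIs in 1 cell. By Mmp13, 3.86% of genes were higher and 6.91% lower; Cxcl2, a neutrophil chemokine, was at 505 CPM with Mmp13 and 202 CPM without, Mmp12 at 916 and 583 CPM (1.57, 1.43 to 1.73), and 1 of 11 class II genes was lower. By Cx3cr1, 3.47% were higher and 3.14% lower, with 0 of 11 class II genes among them, and Mmp13 was at 335 CPM with Cx3cr1 and 265 CPM without (1.26, 1.11 to 1.44).

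Mmp12 and Ccr2 were found less often in cells with more Apoe, a gene chosen for its Fano factor after values had been seen. Apoe was at 4882 CPM in 73.7% of members, and after thinning in 61.3% of macrophages, 54.6% of endothelial, 35.7% of proximal tubule and 6.09% of T cells, so single UMIs were not taken as expression and cells were placed in bins. In the restricted set 205 cells had 0 thinned Apoe UMIs, 135 had 1 to 4, 94 had 5 to 9 and 89 had 10 or more. Mmp12 was in 48.3% (41.3 to 55.4), 34.8%, 26.6% and 13.5% (7.17 to 22.4) of these bins, from low to high Apoe. Ccr2 was in 49.8% (42.7 to 56.8), 35.6%, 27.7% and 15.7% (8.88 to 24.98). For both genes the intervals of the lowest and highest bins do not overlap.

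Other genes were found more often in cells with more Apoe. Of 1142 genes, Lyz2 (0.34), Selenop (0.26), Pf4 (0.25), Maf (0.25) and Mrc1 (0.18) were among those with the highest rho with Apoe in these cells. Mmp12 (-0.27) and Ccr2 (-0.25) had the lowest, so the bins show the same relation again and are not separate support. Lyz2 was in 58.5%, 68.1%, 80.9% and 83.1% of the 4 bins, and the platelet factor 4 gene Pf4 in 1.95% (0.534 to 4.92), 9.63%, 16.0% and 20.2% (12.4 to 30.1). The lipid-sensing receptor Trem2 was in 0.976% (0.118 to 3.48), 1.48%, 3.19% and 14.6% (8.01 to 23.7), and the transcription factor Maf in 7.32%, 19.3%, 17.0% and 36.0%. The mannose receptor Mrc1 was in 7.80%, 10.4%, 18.1% and 24.7%, and the selenium transporter Selenop in 37.1%, 48.9%, 61.7% and 65.2%. Cx3cr1 was in 35.1% (28.6 to 42.1) of cells at 0 Apoe and in 51.7% (40.8 to 62.4) at 10 or more, intervals that overlap slightly, and Mmp13 in 17.6% and 21.3%, which overlap. At equal depth Maf was also in 62.7% and Selenop in 63.1% of proximal tubule cells, whose RNA was limited but not absent in the restricted set. H2-Aa differed little along Apoe: H2-Aa was in at least 99.5% of each bin, at a mean of 18.9 thinned UMIs at 0 Apoe and 17.8 at 10 or more.

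**Figure D4:**
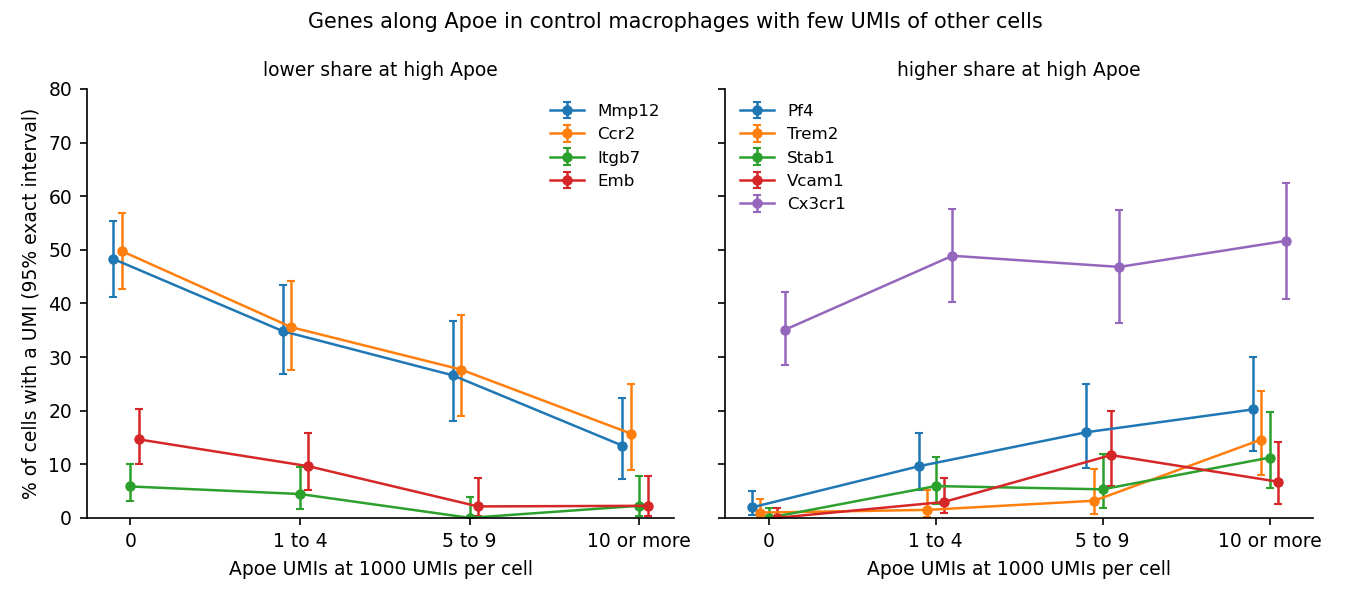
Percent of cells with a UMI (y axis, points with exact 95% intervals) in 4 bins of Apoe UMIs per 1000 (x axis), in 523 control macrophages with few UMIs of other cells. Mmp12, Ccr2, Itgb7 and Emb (left) are lower at high Apoe, Mmp12 at 13.5% against 48.3%; Pf4, Trem2, Stab1, Vcam1 and Cx3cr1 (right) are higher, Pf4 at 20.2% against 1.95%.

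Summed levels were also compared, for the 183 restricted cells with 5 or more thinned Apoe UMIs against the 205 with none. They come from the same cells and Apoe counts as the bins, so they are not separate support. The adhesion molecule Vcam1 was at 120 and 5.80 CPM, the scavenger receptor Stab1 at 107 and 7.73 CPM, Pf4 at 234 and 19.3 CPM, the chemokine Ccl12 at 235 and 29.9 CPM and Trem2 at 113 and 21.3 CPM. Stab1 was also in 16.0% of thinned endothelial cells, where Pf4 was in 0.313% and Trem2 in 0.104%. On the other side, Mmp12 was at 445 CPM with Apoe and 915 CPM without (ratio 0.487, 0.437 to 0.541), Ccr2 at 368 and 783 CPM (0.470, 0.418 to 0.527), the integrin genes Itgax at 107 and 193 CPM and Itgb7 at 24.4 and 74.4 CPM, and the NF-kB regulator Tnip3 at 35.0 and 166 CPM. Of 4824 genes, 8.06% were at least 1.5-fold higher and 4.06% lower. Of the lists, 6 of 19 identity genes (Apoe included), 4 of 7 complement genes and 6 of 17 phagocytic receptors were higher. The identity and complement lists hold the C1q genes that chose the cells. Of 10 class II genes 0 were higher and 1 was lower. Lower were 3 of 4 type 2 dendritic markers (Itgax included) and 2 of 3 monocyte markers (Ccr2 included), with 0 higher in either list. Of 18 interferon-stimulated genes 4 were lower and 1 was higher. The cells with Apoe had a median of 5715 UMIs, and those without had 4794.

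In FA macrophages Mmp12 was low in every Apoe bin. With 148, 431, 257 and 213 FA cells from low to high Apoe, Mmp12 was in 4.05%, 4.41%, 1.95% and 3.29%, and Ccr2 in 36.5%, 31.6%, 25.3% and 35.2%. Pf4 was in 11.5%, 18.6%, 26.1% and 26.3%, and Trem2 in 13.5%, 16.2%, 16.3% and 24.4%. The difference of these gradients between FA and control was not tested.

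A further group of genes varied together: chemokines and immediate early genes. In the restricted set the class II list had a rho of -0.04 with Ccl4 and -0.10 with the immediate early list. In class II-high against class II-low cells of that set, 6 of 12 chemokine ligands were at least 1.5-fold lower and 0 higher. Of 20 immediate early genes 5 were lower and 0 higher, beside 11.3% of all genes lower. Across the restricted set, the gene most like Ccl4 by rho was Ccl3 at 0.54, then Dusp1 (0.44), Fos (0.42), the heat shock gene Hspa1a (0.41), Atf3 (0.39), Egr1 (0.39) and Jun (0.38). The inflammatory chemokine genes Ccl3 and Ccl4 were at 1895 and 3077 CPM in 76.7% and 77.4% of members, and the inflammatory cytokine Il1b at 1171 CPM in 76.5%. Jun stood at 4614, Fos at 3126 and Hspa1a at 2369 CPM; genes of this kind are also known to respond to tissue dissociation, whose part in these values was not tested. Fos was in 66.1% of thinned macrophages, 66.5% of T cells and 5.998% of proximal tubule cells. The genes most like Mmp12, Mmp13 and Cx3cr1 had a rho of at most 0.15, 0.20 and 0.14, too weak in such sparse counts to name a companion.

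Genes of other phagocytes were found in shares of the members from small to large. The monocyte gene Plac8 had 5 or more UMIs in 13 members, which held 95.8% of its UMIs. The type 2 dendritic marker Cd209a was in 35 members, 9 of them with 5 or more UMIs and 76.0% of the total. Clec9a, a receptor for dead cells known from type 1 dendritic cells, was in 137 members but never above 4 UMIs, and the adhesion gene Cadm1 was in 70.1% at 273 CPM; Xcr1, a defining type 1 marker, was in 8 members. H2-M2, a class I-like gene, was in 37 members.

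FA macrophages chosen by the same rule had far less RNA of class II, Mmp12 and Mmp13 than control macrophages, and about as much Cx3cr1. The rule found 1064 FA cells of 15922 kept, or 6.68% (6.30 to 7.08), with a median of 6698 UMIs. The limit on proliferation genes kept 1126 of 1635 C1q-positive FA cells and 739 of 757 control cells. Of 12075 genes tested, 23.5% were at least 1.5-fold higher and 22.2% at least 1.5-fold lower in FA, with a median log2 ratio of 0.03. A count of list members is to be read against those shares.

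Class II was lower in FA macrophages. Of 11 tested class II genes 10 were at least 1.5-fold lower and 1, Ifi30, was higher, with a median log2 ratio of -3.18. H2-Aa was at 1388 CPM in FA and 16837 CPM in control macrophages, a ratio of 0.0825 (0.0808 to 0.0842), H2-Eb1 at 1512 and 17564 CPM (0.0861), H2-Ab1 at 1888 and 14996 CPM (0.126), and Cd74 at 5202 and 47193 CPM (0.110). Ciita was at 26.6 and 248 CPM (0.107, 0.0914 to 0.125), H2-DMa at 274 and 835 CPM and H2-DMb1 at 184 and 858 CPM. Ifi30 was at 696 CPM in FA and 304 CPM in control macrophages.

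The per-cell shares hardly overlapped. The class II list took 0.339% of UMIs at the FA median, with quartiles of 0.152% and 1.38% and a highest of 10.9%, against the control median of 10.7%. In FA, 642 of 1064 cells (60.3%, 57.3 to 63.3) lay under 0.5% of UMIs, and in control 0 of 673 did, which allows a share of up to 0.547%. At or above the control 5th percentile of 4.98% were 52 FA cells, or 4.89% (3.67 to 6.36). In the other kept cells of the 2 libraries the ratio ran the other way, with H2-Aa at 1049 CPM in FA and 662 CPM in control (1.58). Cd74 was at 1.60 and Ciita at 2.30. That pool mixes cell types, so its ratios do not give class II per cell, and class II by cell type was not compared.

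Mmp12 was at 53.7 CPM in FA macrophages and 605 CPM in control macrophages, a ratio of 0.0886 (0.0796 to 0.0985), and Mmp13 at 25.8 and 279 CPM, a ratio of 0.0923 (0.0788 to 0.108). After thinning, Mmp12 was in 3.53% and 33.6% of these cells and Mmp13 in 1.33% and 19.3%. In the other kept cells Mmp12 was at 10.2 and 10.7 CPM and Mmp13 at 6.03 and 4.97 CPM. Mmp14 was at 52.3 CPM in FA and 16.6 CPM in control macrophages, Mmp25 at 2.43 and 9.44 CPM and Timp2 at 102 and 294 CPM. Of 7 tested metalloproteinases 3 were higher and 3 lower.

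Cx3cr1 was close in both groups. It was at 577 CPM in FA and 622 CPM in control macrophages, a ratio of 0.928 (0.884 to 0.974), and in 38.1% and 42.4% of thinned cells. Ccr2 was at 448 and 541 CPM (0.829, 0.786 to 0.874). Ccr1, a receptor for inflammatory chemokines, was at 187 and 13.8 CPM (13.6-fold; 15.4-fold in the other kept cells). Of the monocyte markers 8 of 9 were at least 1.5-fold higher in FA, the list summing to 1916 CPM in FA and 720 CPM in control macrophages, and Ly6c2 was in 300 of 1064 and 21 of 673 cells; the part of monocytes in these values was not tested. Among cells with no Ly6c2 or Plac8 UMI, a choice made after values were seen, the class II ratio was 0.0832, that of Mmp12 0.106, of Mmp13 0.141 and of Cx3cr1 1.07.

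Identity genes differed unevenly. C1qa was at 5059 CPM in FA and 6495 CPM in control macrophages (0.779), C1qb at a ratio of 0.874 and C1qc of 0.642, values the rule itself used. Csf1r was at 484 and 631 CPM (0.767), Adgre1 at 141 and 275 CPM (0.513), Cd81 at 352 and 1262 CPM (0.279) and Tmem176b, a membrane protein of antigen-presenting cells, at 296 and 1512 CPM (0.196). In the other kept cells the ratio was 0.778 for Cd81 and 1.34 for Tmem176b. Higher in FA were the antibody receptor Fcgr1, at 499 and 156 CPM, and Trem2, at 243 and 57.3 CPM; their ratios were 3.19 and 4.24 in macrophages and 29.9 and 5.88 in the other kept cells. For Csf1r and Adgre1 the ratios in the other cells were 3.74 and 4.50. Of 20 tested identity genes 4 were higher and 6 lower, but the list holds the 3 C1q genes that chose the cells, and C1qc is 1 of the 6, so nothing is read from this count. Cadm1 was at 25.5 CPM in FA and 273 CPM in control macrophages (0.0935), and Clec9a was in 3 and 137 cells. The transcription factor genes Irf8, at 230 and 399 CPM, Batf3, at 49.6 and 98.99 CPM, and Irf4, at 2.43 and 9.67 CPM, were also lower in FA macrophages. Their ratios were 0.575, 0.501 and 0.251, beside 2.48, 2.92 and 2.22 in the other cells. Of 28 tested transcription factor genes 9, Id2 among them, were higher and 7 lower, beside 23.5% and 22.2% of all genes tested.

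**Figure D5:**
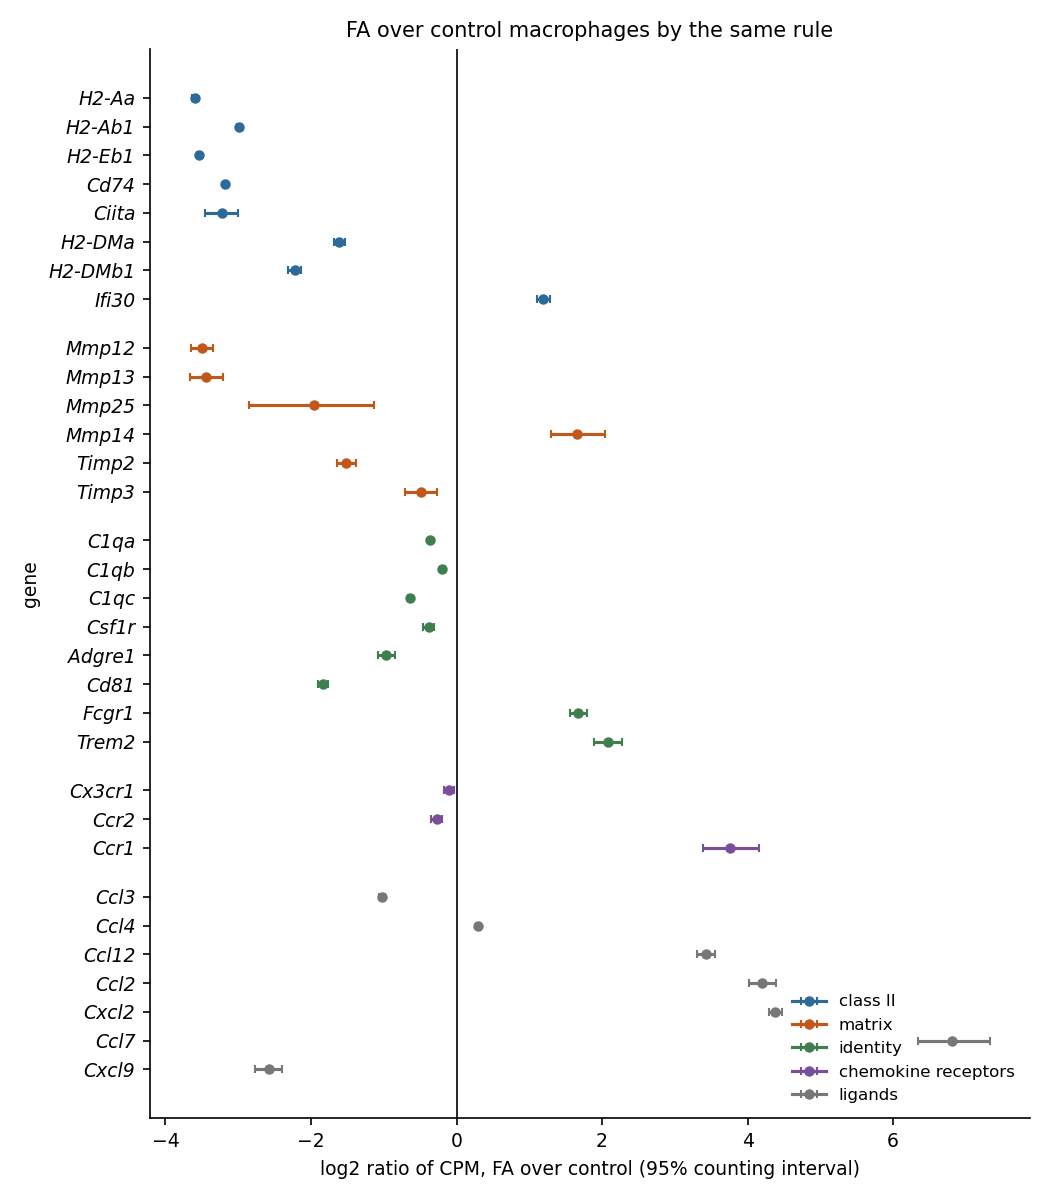
log2 ratio of CPM, FA over control macrophages (x axis, points with 95% counting intervals), for named genes (y axis) of class II, matrix proteases, identity, chemokine receptors and ligands. Mmp12, Mmp13 and the class II genes drawn other than Ifi30 lie left of 0, with ratios of at most 0.328, Cx3cr1 lies near 0 with a ratio of 0.928, and Ccl7, Cxcl2 and Ccl2 lie far right, with ratios of at least 18.4.

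Chemokines that draw monocytes and neutrophils were higher in FA macrophages, and in the other FA cells as well. Of 16 tested ligands 9 were higher and 2 lower, with a median log2 ratio of 1.08. Ccl7, which draws monocytes, was at 932 CPM in FA and 8.29 CPM in control macrophages (112-fold, 81.2 to 161), Ccl2 at 1039 and 56.4 CPM (18.4-fold) and Cxcl2 at 5145 and 247 CPM (20.8-fold). Each of these 3 was also higher in the other kept cells of FA, by 214-fold for Ccl7, 28.6-fold for Ccl2 and 99.8-fold for Cxcl2. The other kept cells include C1q-positive cells that the rule left out, so whether the rise was particular to macrophages was not tested. Ccl3 was at 931 and 1895 CPM in macrophages (0.491; 4.74 in the other cells), and Cxcl9 at 41.8 and 249 CPM (0.168; 0.907). Of 18 interferon-stimulated genes 13 were higher and 2 lower: Irf7 was at 450 and 70.0 CPM, Ifitm3 at 2940 and 839 CPM and Ifi27l2a at 4016 and 1055 CPM. The ratios in macrophages were 6.44, 3.50 and 3.81, beside 5.87, 2.78 and 10.6 in the other cells.

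Of 22 toll-like receptor and inflammasome genes 8 were higher and 3 lower. The gasdermin gene Gsdmd was at 47.3 CPM in FA and 52.5 CPM in control macrophages, a ratio of 0.902 (0.761 to 1.07), and Gsdme at 9.98 and 10.4 CPM (0.963, 0.656 to 1.43). The inflammasome sensor Nlrp3 was at 123 and 35.2 CPM, the adaptor Pycard at 374 and 159 CPM and Casp4 at 64.7 and 33.8 CPM, with ratios of 3.50, 2.36 and 1.91 beside 23.2, 2.73 and 3.40 in the other kept cells, while Casp1 was at 51.0 and 69.5 CPM. Of 14 lipid handling genes 7 were higher and 3 lower, and of 20 lysosomal genes 5 and 3. The matricellular protein gene Spp1 was at 1173 and 56.6 CPM, and at 17600 and 1077 CPM in the other kept cells.

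Several of the highest ratios were about as high in the other kept cells. Timm23, a mitochondrial import channel gene, was at 122 and 2.30 CPM in FA and control macrophages (52.9-fold) and at 123 and 3.25 CPM in the other cells (37.8-fold); 1255 gene names were above 0 in the control library only and 2543 in FA only, and the part of naming in such ratios was not tested. Cfp, the complement factor properdin, was at 446 and 20.5 CPM (21.8-fold; 19.4-fold in the other cells), and the monocyte product Chil3 at 277 and 15.0 CPM (18.5-fold; 12.8-fold). Slfn4 was at 180 CPM in FA macrophages and at 1 UMI in control macrophages, a ratio of 780 (140 to 30838). Ecm1, an extracellular matrix glycoprotein, was at 167 and 4.83 CPM (34.6-fold), with 36.3 and 35.9 CPM in the other cells, and Capg at 491 and 23.9 CPM (20.5-fold; 3.83-fold). The tubule gene Slc12a3 was at 0 UMIs in FA and 123 CPM in control macrophages, and the antibody gene Igkc at 15.6 and 110 CPM; of markers of other cells, 6 of 7 endothelial, 5 of 5 distal nephron, 4 of 4 B and plasma cell and 5 of 10 proximal tubule genes were lower in FA macrophages, while 5 of 6 neutrophil, 6 of 8 T and NK and 3 of 3 podocyte genes were higher. The neutrophil list summed to 195 and 23.7 CPM, the T and NK list to 58.4 and 23.5 CPM and the proximal tubule list to 498 and 1093 CPM in FA and control macrophages. The T and NK, B and plasma cell and proximal tubule lists hold genes that the rule limited in both libraries. H2-M2 was listed at 0 in the whole FA library and given no ratio.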

How the data were processed

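RNA of single kidney cells was barcoded in gel-bead droplets, per the labels' protocols. The authors deposited 1 matrix of raw UMI counts, 21855 genes by 28678 barcodes, in which all values are whole. Seurat and mm10 are named, per the submitters' processing notes; aligner and counter: not given in the sources used here. Every column was given to a sample by the start of its name. The libraries use different gene name versions, so 254 name pairs were joined through RefSeq synonyms, leaving 21601 genes.

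The members and lists were chosen with earlier results of these data known. The rules for comparison cells, the restricted set, the Apoe bins and 3 further alternatives were chosen after values were seen. No doublet caller was run. UMIs were summed per group and scaled to CPM, with exact Poisson, Clopper-Pearson and conditional binomial intervals at 95%. Ratios were computed for genes above 0 in both libraries with at least 20 UMIs over both groups, called at 1.5-fold, and a 0 was set to 3 counts. Thinning drew 1000 UMIs per cell without replacement. Named genes were the given markers, all class II, metalloproteinase and TIMP genes, Cx3cr1, the leading members of each list, the top 10 by CPM and by Fano factor, the 8 extremes of each split (among genes in at least 10% of cells of either side, a condition added after values were seen) and the 10 highest and lowest FA over control ratios at 100 CPM and 50 UMIs; genes in the text beyond these, such as Xist, Ddx3y and values in the other kept cells, were added after values were seen. The intervals were tested on simulated counts that held counting error only, with no spread between cells. That test therefore did not cover spread between cells. Total UMIs were 7416153 in FA and 4343697 in control macrophages. Python 3.11.15, numpy 2.4.6, scipy 1.17.1, pandas 2.3.3 and matplotlib 3.10.9 were used. Some genes of the lists are not reported here.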

Additional observations from a re-analysis of the deposited data

How the results depend on the processing

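The number of members lay between 503 and 701 over 10 alternatives, and the FA over control ratios of class II, Mmp12 and Mmp13 kept their direction, while the uncalled Cx3cr1 ratio crossed 1. Ratios of other single genes were not recomputed. The class II level of 98939 CPM was 98567 at a C1q minimum of 5, 99594 at 20, 98541 with C1q at 0.1% of UMIs, 102797 with at most 20% mitochondrial UMIs, 103123 with Lrp2 at 0 and under 5 tubule UMIs, 101196 without the cells above the 95th percentile of UMIs, 108653 in the restricted set, 101073 without Ly6c2 or Plac8, 103816 over UMIs that are not mitochondrial and 104106 with cells weighed equally. The FA over control class II ratio was 0.112 with C1q at 0.1%, 0.109 with at most 20% mitochondrial UMIs, 0.110 with the tubule limit, 0.109 in the restricted set, 0.0832 without Ly6c2 or Plac8, 0.109 over non-mitochondrial UMIs and 0.108 with cells weighed equally. Mmp12 kept a ratio between 0.0842 and 0.106, Mmp13 between 0.0775 and 0.141, and Cx3cr1 between 0.876 and 1.07. At 2-fold, 1421 genes were higher and 1530 lower in FA, and with no minimum beyond 1 UMI in each group 4507 were lower; the cause was not tested. Depth limits genes under a few UMIs per cell: thinned to 2000 UMIs, Mmp12 was in 48.4% of cells in place of 33.6%, Mmp13 in 31.8% and Cx3cr1 in 63.0%. No replicate could be left out. No paired analysis was possible because each group is 1 library. Free RNA, doublets, dissociation and the sex of the animals were not tested.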
